A study of Mus musculus with 8 samples.

Results

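Immediate early genes are switched on within minutes of a growth factor, serum or stress signal from transcription factors that are already in the cell, and their RNAs are short-lived. Proteins of the JUN and FOS families pair through leucine zippers to form AP-1, which binds a short element in many promoters and enhancers. FOS proteins cannot bind as pairs of their own and need a JUN partner, whereas JUN proteins can also pair with one another. In kidney epithelium these factors are known for their induction after injury and by ligands of receptor tyrosine kinases, the receptor class to which RET, the GDNF receptor, belongs.

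The 10 genes described here are the Fos family (*Fos*, *Fosb*, *Fosl1* and *Fosl2*), the Jun family (*Jun*, *Junb* and *Jund*), the zinc finger factor *Egr1*, the stress-induced factor *Atf3* and the growth regulator *Myc*. They were chosen by symbol and are 10 of 24063 genes in the deposited tables. Their measured values played no part in the rule. The transcripts of a gene were summed for the count-based test, and the level of a gene is given as TPM, a length-normalized transcript abundance, of its most counted transcript. CPM is the count scaled to the library without regard to length.

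Tubuloids are cultured spheroids and tubules that form in Matrigel when fragments of mouse kidney tubules are plated in it, here from mice of postnatal day 7 to 10 by the labels and of a younger range by the study's methods. RNA-Seq compared 4 GDNF cultures, which had received a 24 h pulse of glial-derived neurotrophic factor, with 4 control cultures without it, all collected on culture day 7, to ask which genes the pulse changed. All 8 cultures had the genotype Pkd2fl/fl Pax8rtTA TetOCre mTmG. By the study's methods both groups were kept in medium with fetal bovine serum, HGF, EGF and bFGF until tubuloids were recovered from Matrigel for RNA. In this genotype Cre depends on doxycycline and on the *Pax8* promoter, which restricts it to renal epithelium. No doxycycline is named for these cultures, and *Pkd2* is therefore floxed but not described as deleted in either group. Nothing in the labels says whether the cultures came from separate animals, and p-values measure the spread between these cultures only. In bulk RNA, fewer cells of a type and less RNA per cell cannot be told apart.

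Counts over all transcripts ranged from 85536401 to 97490625 per control culture and from 72991721 to 93074126 per GDNF culture. Control culture 3 stood apart from the rest, with a TMM normalization factor of 0.790 against 0.963 to 0.982 in the other controls and 1.07 to 1.11 in the GDNF cultures, and with a count-weighted median transcript length of 1865 bases against 2135 to 2309 in the other controls. In the GDNF cultures that length was 2332 to 2637 bases, above every control. TPM carries no correction for such shifts: the median log2 ratio of mean TPM, GDNF over control, was 0.40 over the genes that averaged 1 TPM or more, and 78.6% of them had the higher mean after GDNF. With TMM normalization the median log2 fold change over all genes tested was 0.033, and with library size alone it was 0.25. The epithelial markers were present in every culture, with the summed TPM of *Cdh1*, *Epcam*, *Krt8*, *Krt18*, *Krt19*, *Pax8* and *Cdh16* between 479.0 and 3717, and none of the markers measured was at 0. Markers of other cell types were present as well, at 111.1 to 1030 summed TPM for 7 stromal genes, 8.95 to 67.1 for 4 podocyte genes, 9.29 to 31.4 for 5 endothelial genes and 4.65 to 40.8 for 4 blood cell genes.

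Promoters of these genes hold short elements through which growth factor and stress signals act on them, and AP-1 acts on its own genes through such elements. RefSeq promoters of GRCm38.p6, which span the transcription start, were matched for 7 of the 10 genes, *Fos*, *Fosb*, *Fosl2*, *Jun*, *Junb*, *Jund* and *Atf3*. Promoters of *Fosl1*, *Egr1* and *Myc* were not used here. For 4 genes the stretch from 110 to 21 bases before the start is shown, 5′ to 3′ on the strand of the gene, because these matches to response elements lie in it. Capitals mark matches to the cAMP response element core TGACG (*Fos*, *Junb*), the element TGACATCA of the *Jun* promoter, the EGR element GCGNGGGCG (*Fosl2*) and the TATA box TATAAA (*Fos*). The regions are chr12:85473780-85473869 on the plus strand for *Fos*, chr5:32136362-32136451 on the plus strand for *Fosl2*, chr4:95052243-95052332 on the minus strand for *Jun* and chr8:84978769-84978858 on the minus strand for *Junb*.
Fos: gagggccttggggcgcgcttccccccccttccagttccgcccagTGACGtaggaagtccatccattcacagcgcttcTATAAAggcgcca
Fosl2: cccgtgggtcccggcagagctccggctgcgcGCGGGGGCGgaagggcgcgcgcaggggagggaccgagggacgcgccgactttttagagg
Jun: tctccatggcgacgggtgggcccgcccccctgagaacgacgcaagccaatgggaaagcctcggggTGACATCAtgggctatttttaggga
Junb: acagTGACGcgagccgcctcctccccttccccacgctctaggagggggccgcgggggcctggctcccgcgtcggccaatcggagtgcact

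Both strands were searched over the whole window of each of 32851 promoters. TGACG was found in 4 of the 7 promoters (*Atf3*, *Fos*, *Fosb* and *Junb*) and in 20.8% of all promoters. TGACATCA was found in that of *Jun* alone of the 7 and in 3.62% of all. GCGNGGGCG was found in those of *Fosb* and *Fosl2* and in 5.55% of all, and TATAAA in those of *Fos* and *Junb* and in 13.6% of all. The TATAAA match of *Fos* begins 33 bases before the start, and that of *Junb* at the start itself. No match was found in the 7 promoters for the full cAMP response element TGACGTCA, which contains TGACG and is in 1.79% of all promoters, for the AP-1 element TGANTCA (7.81%) or for the CArG box, the binding site of serum response factor (1.63%). These matches describe letters in a short window about the start and were not tested as binding sites. Elements farther upstream, or in the promoters of *Fosl1*, *Egr1* and *Myc*, were not searched, so these genes may hold elements that were not found here. The RefSeq start used for *Fosb* lies within the transcript counted here, so its stretch is not shown.

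After the GDNF pulse, none of the 10 factors differed from the controls beyond the spread between cultures once the test was adjusted over all genes. RNA was taken on culture day 7, days after the pulse, so a brief response during it or soon after was not measured. *Fosl1* was the only one with an unadjusted p under 0.05, at a log2 fold change of -0.80. The 9 others had log2 fold changes between -0.64 for *Atf3* and 0.19 for *Fosl2*. By the quasi-likelihood test of edgeR, adjusted by Benjamini-Hochberg, 0 of 16557 genes passed an adjusted p of 0.05 (0% called), with a smallest adjusted p of 0.167 over all genes and of 0.212 among the 10. At an unadjusted p of 0.05, 22.1% of all genes were called, against 1 of the 10. With each culture left out, 0 to 3 of the 10 were called. The 3 were found without control culture 7, where 4104 of 16772 genes were called. The lowest count over all genes was 2192 of 16772, without GDNF culture 22, where 0 of the 10 were called. DESeq2 called 1253 of 20229 genes at an adjusted p of 0.05 (6.19%), and 19.8% at an unadjusted p of 0.05, and none of the 10 after adjustment, with *Atf3* and *Fosb* left without an adjusted p by that tool. In TPM, the control and GDNF cultures did not overlap for 24.1% of 13698 genes (23.4% higher and 0.679% lower after GDNF) and overlapped for all 10 factors, of which *Fosb* was below the mean of 1 TPM asked of those 13698 genes. In CPM with TMM normalization, they did not overlap for 13.2% of genes and again overlapped for all 10. The median log2 fold change of the 10 factors was -0.063, with 5 below 0 against 47.5% of all genes.

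**Figure D1:**
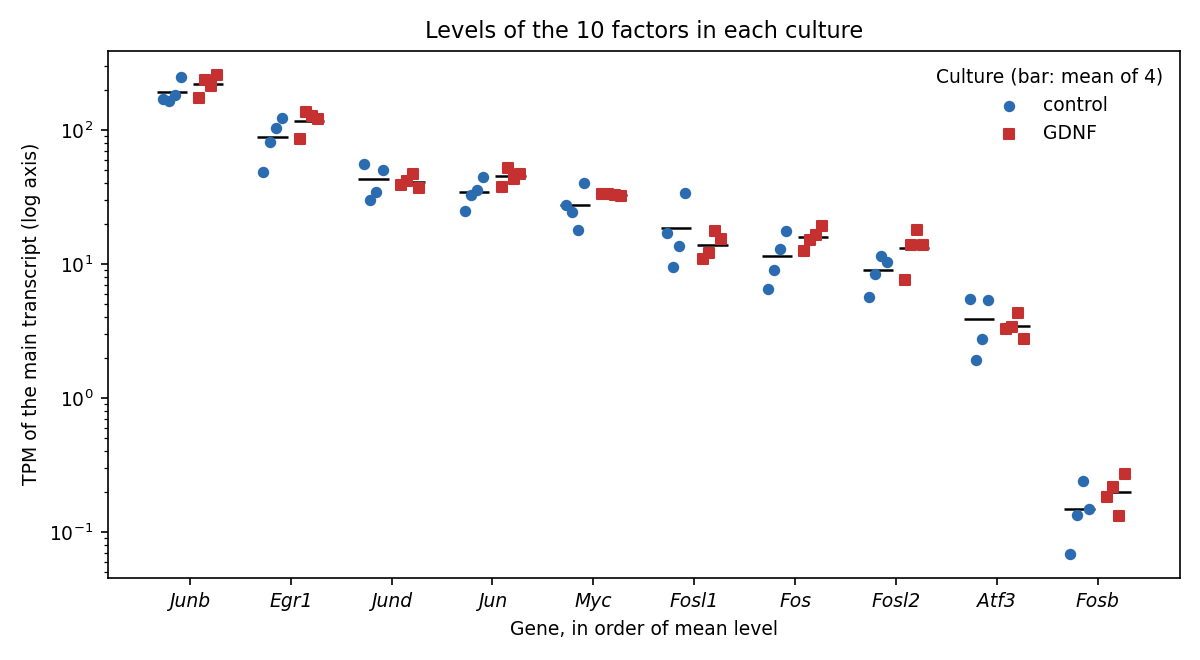
TPM of the main transcript of each of the 10 factors (log axis) in the 4 control cultures (circles) and the 4 GDNF cultures (squares), with a bar at each mean of 4. *Junb* is highest at 165.9 to 259.5 TPM, *Fosb* lowest at 0.0684 to 0.271 TPM, and the groups overlap for each gene.

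Ordered by mean level over the 8 cultures, the factors ran *Junb*, *Egr1*, *Jund*, *Jun*, *Myc*, *Fosl1*, *Fos*, *Fosl2*, *Atf3* and *Fosb*. By mean TPM over control and GDNF cultures together, *Junb* was among the highest 2.15% of all listed genes and *Egr1* among the highest 4.47%. Some neighbours in this order were separated in every culture: *Junb* was above *Egr1* by a mean ratio of 2.06, *Myc* above *Fosl1* by 1.95, *Fosl2* above *Atf3* by 3.02 and *Atf3* above *Fosb* by 21.6, each in 8 of 8 cultures. Others were not. *Jund* was above *Jun* in 4 of 8 cultures with a mean ratio of 1.06, and *Fosl1* was above *Fos* in 5 of 8 with a ratio of 1.16. *Egr1* over *Jund*, *Jun* over *Myc* and *Fos* over *Fosl2* held in 7 of 8 cultures. *Jund* has 2 listed transcripts and *Myc* 4, and the other factors have 1 each. With TPM summed over transcripts, *Myc* averaged 120.8 TPM against 30.2 TPM for its main transcript, and *Jund* 84.1 against 42.0 TPM. These sums are close to the TPM of the main transcript times the number of transcripts, and a read shared by transcripts is counted for each. In the sums *Myc* came second after *Junb*, above *Egr1* (103.5 TPM) in 6 of 8 cultures, and *Jund* averaged below *Egr1*. That place of *Myc* comes from repeated counting and is not another estimate of its level. The group difference of *Myc* in the sums was 22.3 TPM against 5.57 TPM for its main transcript, with the same exact permutation p of 0.314. Genes that overlap *Fosl1* (*Ccdc85b*), *Junb* (*Prdx2*), *Jun* (the antisense *Junos*) and *Jund* (the antisense *Gm11175*) are annotated, and the values of these factors are uncertain to the extent that reads were shared, since the handling of strand and of shared reads is not given in the sources used here.

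JUN proteins supply a partner to every AP-1 pair. *Junb* (transcript of 1840 bases on chromosome 8 of GRCm38, 84976909 to 84978748), which encodes a JUN protein that can oppose the growth-promoting action of c-JUN, was at 170.8, 165.9, 183.0 and 250.7 TPM in control cultures 3, 7, 14 and 21. Its levels in GDNF cultures 6, 12, 17 and 22 were 174.0, 238.5, 212.0 and 259.5 TPM. The ranges covered each other almost completely, with control culture 21 beside the highest GDNF cultures. The means were 192.6 ± 39.4 TPM (SD, n = 4) in the controls and 221.0 ± 36.9 TPM (SD, n = 4) after GDNF (exact permutation test, two-sided, p = 0.343; adjusted over all genes 0.482). In counts with TMM normalization the log2 fold change was -0.21 with a standard error of 0.16 (edgeR, adjusted p = 0.470), so the sign depended on the scale: with library size alone it was 0.023.

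*Jun* (chromosome 4, 95049036 to 95052222) encodes c-JUN, the founding member of the family and the target of JUN N-terminal kinases. Control cultures 3, 7, 14 and 21 held 24.7, 32.6, 35.9 and 44.5 TPM of it, and GDNF cultures 6, 12, 17 and 22 held 37.7, 52.6, 43.3 and 46.9 TPM. Of the 10 factors *Jun* came closest to a separation in TPM: 3 of the 4 controls lay below every GDNF culture, and control culture 21 lay above 2 of them. Mean levels were 34.4 ± 8.19 and 45.1 ± 6.24 TPM (exact permutation test, two-sided, p = 0.0857; adjusted over all genes 0.199). On the TMM scale *Jun* was the most even of the 10, with an SD of log2 CPM of 0.14 over the 8 cultures (percentile 3.48 among the genes tested), and a log2 fold change of 0.012 (95% interval -0.30 to 0.32).

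*Jund* (chromosome 8, 70697739 to 70700616) encodes the family member that is usually present in resting cells. It was at 55.9, 30.2, 34.8 and 50.8 TPM in control cultures 3, 7, 14 and 21 and at 38.8, 41.8, 47.3 and 36.8 TPM in GDNF cultures 6, 12, 17 and 22. Control cultures 3 and 21 were the highest of the 8 and control cultures 7 and 14 the lowest, so that all GDNF values lay inside the control range. Means were 42.9 ± 12.3 and 41.2 ± 4.58 TPM (exact permutation test, two-sided, p = 0.800). The log2 fold change was -0.51 with a standard error of 0.27 (edgeR, adjusted p = 0.288). Without control culture 3 it was -0.17, and with library size alone or limma-voom it was -0.25.

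Within the Jun family, *Junb* made up 67.9% to 75.6% of the summed TPM in all 8 cultures. *Jun* made up 9.84% to 15.8% and *Jund* 10.7% to 22.2%, the highest *Jund* share being in control culture 3. The family total was 228.7 to 346.0 TPM in the controls and 250.5 to 343.2 TPM in the GDNF cultures.

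**Figure D2:**
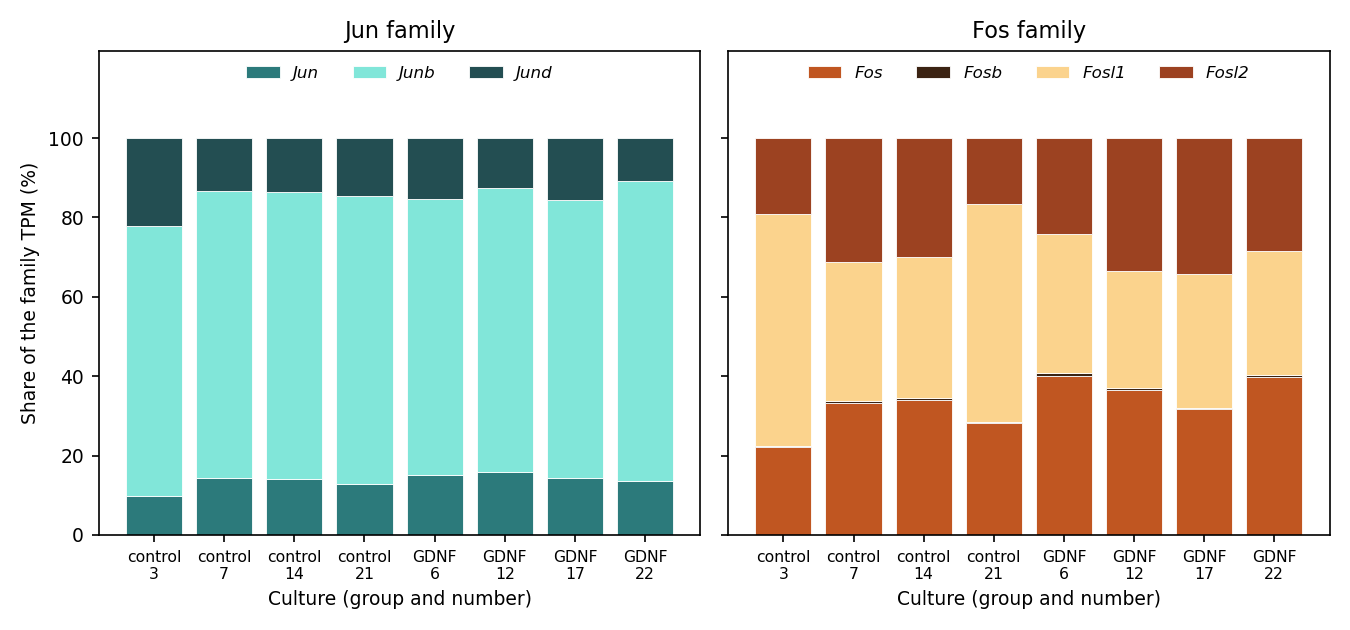
Share of the summed family TPM (%) held by each Jun family gene (left) and each Fos family gene (right), with 1 stacked bar per culture. *Junb* holds 67.9% to 75.6% of the Jun family throughout, and the *Fosl1* share of the Fos family is 35.0% to 58.3% in the controls and 29.5% to 35.0% in the GDNF cultures.

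FOS proteins bind DNA only with a JUN partner, and the family total was far below that of the Jun genes, at 27.0 to 62.0 TPM. The Jun family sum exceeded the Fos family sum by 5.59 to 8.54 times in the controls and by 5.81 to 8.07 times in the GDNF cultures. *Fosl1* (chromosome 19, 5447698 to 5455938) encodes FRA-1, which lacks the strong activating region of c-FOS and appears later than it after a stimulus. Its levels were 17.2, 9.45, 13.6 and 34.0 TPM in control cultures 3, 7, 14 and 21 and 10.9, 12.2, 17.6 and 15.3 TPM in GDNF cultures 6, 12, 17 and 22. Control culture 21 stood well above every other culture, the lowest value was also in a control, and the GDNF cultures lay between them. The means were 18.6 ± 10.8 TPM in the controls and 13.97 ± 3.03 TPM after GDNF (exact permutation test, two-sided, p = 0.600). In counts, *Fosl1* had a log2 fold change of -0.80 with a standard error of 0.34 and a 95% interval of -1.57 to -0.038 (edgeR, unadjusted p of 0.0414, adjusted p = 0.212). At the unadjusted threshold, 12.9% of all genes were lower. Without control culture 21 it was -0.51, without control culture 3 it was -0.70, and without GDNF culture 6, 12 or 22 it was -0.73, -0.74 or -0.82, each with an unadjusted p above 0.05. The TPM difference without control culture 21 was 0.553 TPM in the opposite direction.

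*Fos* (chromosome 12, 85473890 to 85477274) encodes c-FOS, the classical immediate early factor, whose RNA is made in a brief burst. In control cultures 3, 7, 14 and 21 it was measured at 6.54, 8.97, 13.1 and 17.5 TPM, and in GDNF cultures 6, 12, 17 and 22 at 12.5, 15.1, 16.5 and 19.4 TPM. The lowest 2 values were controls and the remaining controls lay within the GDNF range. Means were 11.5 ± 4.82 and 15.9 ± 2.87 TPM (exact permutation test, two-sided, p = 0.200; adjusted over all genes 0.332). The log2 fold change in counts was 0.10 with a standard error of 0.22 (edgeR, adjusted p = 0.812).

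*Fosl2* (chromosome 5, 32136472 to 32157840) encodes FRA-2, the second FOS-related antigen. It was at 5.65, 8.44, 11.5 and 10.3 TPM in control cultures 3, 7, 14 and 21 and at 7.56, 13.8, 17.9 and 13.9 TPM in GDNF cultures 6, 12, 17 and 22. Of the GDNF cultures, 3 exceeded every control and culture 6 lay below 3 of the 4 controls. Mean levels were 8.98 ± 2.56 and 13.3 ± 4.28 TPM (exact permutation test, two-sided, p = 0.171), and the log2 fold change of 0.19 had a 95% interval of -0.33 to 0.71. Without GDNF culture 6 the groups did not overlap, with a difference of 6.22 TPM. The exact permutation p was 0.0286, the smallest that 4 against 3 cultures can give. The share of all genes that did not overlap was not computed without that culture, and with all 8 cultures it was 24.1%. In counts without GDNF culture 6 the log2 fold change was 0.36 (edgeR, adjusted p = 0.272).

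*Fosb* (chromosome 7, 19302696 to 19310118), whose product drives long-lasting responses in neurons, was close to the limit of detection. Its main transcript had 16 to 53 counts per culture, which gave 0.0684 to 0.241 TPM in the controls and 0.130 to 0.271 TPM in the GDNF cultures. The counting error alone reached 25% of the value at the lowest count. Its log2 fold change was 0.078 with a 95% interval of -0.98 to 1.14, the widest of the Fos and Jun genes.

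The makeup of the Fos family varied between cultures more than that of the Jun family. *Fosl1* held 58.3%, 35.0%, 35.5% and 54.8% of the summed Fos family TPM in control cultures 3, 7, 14 and 21, and 35.0%, 29.5%, 33.7% and 31.3% in GDNF cultures 6, 12, 17 and 22. Both high shares were in controls, and the lowest control share and the highest GDNF share were equal to 3 digits. *Fos* held 22.2% to 33.9% in the controls and 31.6% to 40.2% in the GDNF cultures, *Fosl2* 16.6% to 31.3% and 24.3% to 34.4%, and *Fosb* at most 0.626% in any culture. These shares were computed after the levels had been seen and were not tested.

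*Egr1* encodes a zinc finger factor of the immediate early class that acts downstream of ERK and serum response factor. Control cultures 3, 7, 14 and 21 were at 48.3, 81.3, 103.7 and 122.8 TPM and GDNF cultures 6, 12, 17 and 22 at 86.1, 136.8, 126.8 and 121.9 TPM. Control cultures 3 and 7 were below every GDNF culture, and control cultures 14 and 21 lay within the GDNF range. Means were 89.0 ± 32.0 and 117.9 ± 22.1 TPM (exact permutation test, two-sided, p = 0.200). The log2 fold change was 0.049 with a 95% interval of -0.39 to 0.49 (edgeR, adjusted p = 0.903).

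*Atf3* (chromosome 1, 191170296 to 191183333) encodes a stress-induced bZIP factor that pairs with JUN proteins and is known as a marker of tubular injury. It was at 5.52, 1.93, 2.76 and 5.40 TPM in control cultures 3, 7, 14 and 21 and at 3.29, 3.37, 4.31 and 2.76 TPM in GDNF cultures 6, 12, 17 and 22, on 208 to 676 counts. As for *Jund*, control cultures 3 and 21 were the highest and the GDNF cultures lay within the control range. Means were 3.91 ± 1.83 and 3.43 ± 0.644 TPM (exact permutation test, two-sided, p = 0.686). The log2 fold change was -0.64 with a standard error of 0.40 (edgeR, adjusted p = 0.364). It was -0.22 without control culture 3 and -0.89 without control culture 7, where the unadjusted p was under 0.05.

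*Myc* (chromosome 15, 61985341 to 61990361) encodes the factor that drives ribosome production and growth, and its RNA is induced by mitogens shortly after the earliest genes. Control cultures 3, 7, 14 and 21 were at 27.5, 24.3, 17.9 and 40.0 TPM and GDNF cultures 6, 12, 17 and 22 at 33.5, 33.6, 32.8 and 32.0 TPM. The GDNF cultures were nearly level while the controls spread on both sides of them, 3 below and control culture 21 above. Mean levels were 27.4 ± 9.30 and 33.0 ± 0.729 TPM (exact permutation test, two-sided, p = 0.314). Without control culture 21 the groups did not overlap and differed by 9.78 TPM (exact permutation p = 0.0286). In counts the log2 fold change was -0.14 with a standard error of 0.23 (edgeR, adjusted p = 0.749). It was 0.096 with library size alone, 0.0076 without control culture 3 and -0.043 without control culture 21.

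**Figure D3:**
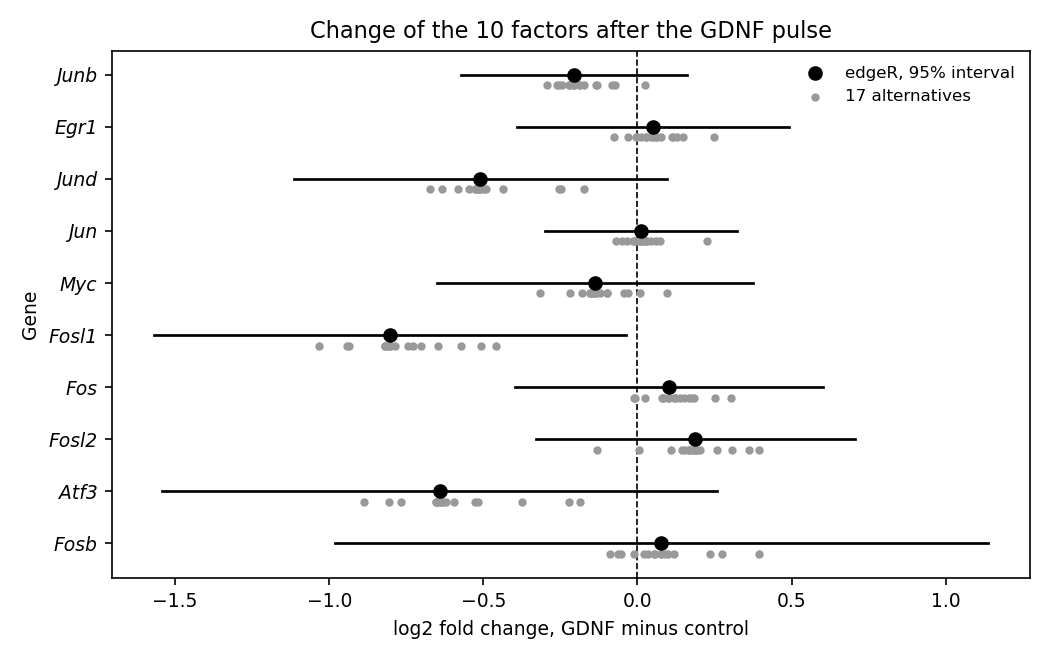
Log2 fold change of each factor, GDNF minus control, from edgeR (black points with 95% intervals) and under 17 alternatives (grey points below each, except that *Fosb* has no value under the filter at a mean of 1 CPM). The interval of *Fosl1*, -1.57 to -0.038, is the only one that leaves out 0.

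For 6 of the 10 factors (*Fos*, *Fosl2*, *Jun*, *Junb*, *Egr1* and *Myc*) the 95% interval of the log2 fold change lay within 1 log2 unit of 0. For *Fosb*, *Fosl1*, *Jund* and *Atf3* it reached past 1 log2 unit, so the spread between cultures leaves room for larger changes of these. Counting error was at most 6.93% of the value at the lowest count for every factor other than *Fosb*. In each group, *Xist* had a higher TPM than 4 Y-linked genes together in 2 cultures (controls 3 and 7, GDNF 6 and 12) and a lower one in the other 2. Control culture 3 and GDNF culture 6 held both kinds of RNA, with 12.5 and 57.4 TPM of *Xist* beside 1.502 and 6.46 TPM of the Y-linked genes. The test of whether the GDNF difference itself depended on that split called 0 of 16557 genes after adjustment. At an unadjusted edgeR p of 0.05 it called 94 of 16557, and none of the 10 factors was among them. With so few genes called, on 2 cultures of each kind per group, the absence of the 10 says nothing about them.

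The extreme values lay in a few cultures. All 10 lowest TPM values were in control cultures: 5 in culture 3 (*Fos*, *Fosb*, *Fosl2*, *Jun* and *Egr1*), 4 in culture 7 (*Fosl1*, *Junb*, *Jund* and *Atf3*) and 1 in culture 14 (*Myc*). On the TMM scale this was not so, since GDNF culture 6 was lowest for 4 factors and control culture 3 highest for 4. *Fosl1* and *Atf3* varied most, with an SD of log2 CPM of 0.65 and 0.66, above 75.9% and 76.3% of genes tested, and 6 of the 10 factors were below the median SD of all genes, 0.40.

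**Figure D4:**
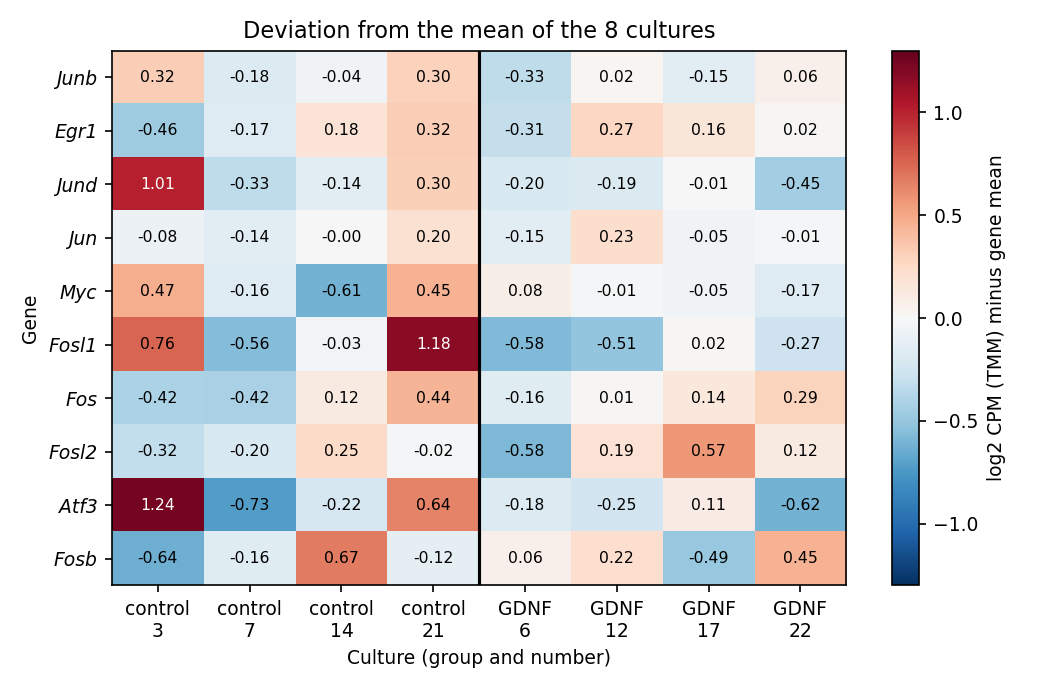
Deviation of each factor's log2 CPM (TMM normalization) from its own mean over the 8 cultures, with controls left of the line and GDNF cultures right of it. *Fosl1*, *Jund*, *Atf3*, *Junb* and *Myc* are above their means in control cultures 3 and 21, and *Jun* varies least, with an SD of 0.14.

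Among 11453 genes outside the 10 with a mean of at least 5 CPM, those whose log2 CPM followed *Fosl1* most closely over the 8 cultures were *Actb*, the gene of beta-actin, and *Map6*, with root mean square differences of 0.10 and 0.14 log2 units. *Actb* was at 2509, 1540, 1996 and 5324 TPM in control cultures 3, 7, 14 and 21 and at 1753, 2128, 3150 and 2568 TPM in GDNF cultures 6, 12, 17 and 22. As for *Fosl1*, control culture 21 was the highest in TPM and control culture 7 the lowest. In log2 CPM, GDNF culture 6 was the lowest for both genes. For *Atf3* the closest were *Tinagl1* and *Adssl1*, each at 0.20 log2 units, and *Tinagl1* was highest in control cultures 21 and 3 at 91.0 and 65.5 TPM. These genes were picked for their likeness to the factor, so shared high and low cultures follow from the choice and are no separate result. The simple keratin genes *Krt8* and *Krt18*, from the epithelial list, were highest in control cultures 21 and 3. *Krt8* was at 1259 TPM in control culture 21 and 672.7 TPM in control culture 3 against 99.4 to 299.3 TPM in the other 6. The summed epithelial markers were 3717 and 2421 TPM in control cultures 21 and 3, 1150 and 479.0 TPM in control cultures 7 and 14 and 1089 to 1571 TPM in the GDNF cultures. The part of these markers, and of the normalization factor of control culture 3, in the values of *Fosl1*, *Jund*, *Atf3*, *Junb* and *Myc* was not tested.

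Among markers of other cell types, 1 passed the unadjusted p, the stromal gene *Lum*, at 23.1 ± 16.1 TPM in the controls and 11.9 ± 1.58 TPM after GDNF (log2 fold change -1.295; edgeR, adjusted p = 0.167). *Dcn* was at -1.34, *Col1a2* at 0.14 and *Col3a1* at -0.21, with adjusted p of 0.468 or more. Of blood cell genes *Lyz2* was at 1.85 ± 1.51 and 11.4 ± 16.2 TPM, *Cd68* at 3.48 ± 0.785 and 4.64 ± 1.40 TPM, and *Csf1r* below 1 TPM on average. Endothelial *Emcn* was at 16.8 ± 7.90 and 19.7 ± 8.49 TPM, with *Kdr* and *Pecam1* below 1 TPM on average, and the podocyte gene *Synpo* had a log2 fold change of 0.32. The epithelial *Krt8* and *Krt19* were at -1.45 and -0.98 (edgeR, adjusted p = 0.216 and 0.232), and their part in the values of the 10 factors was not tested.

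AP-1 genes act within a wider set of bZIP partners, signalling kinases and targets, and these were read from the same edgeR fit. None of these genes passed the adjusted p of 0.05. Counts are given at the unadjusted p, beside 9.25% of all genes higher and 12.9% lower. Those shares moved with the setting. With library size alone, 3299 of 16557 genes were higher and 850 lower, at a median of 0.25. With the transcript length offset 931 were higher and 1990 lower, and with limma-voom 1649 and 2081. With each culture left out, 871 (without GDNF culture 22) to 1713 (without control culture 7) of 16772 genes were higher. From 1321 of 16772 (without GDNF culture 22) to 2577 of 16809 (without control culture 21) were lower. Of 23 other immediate early genes tested, 0 passed in either direction, 13 were lower and 10 higher, and the median log2 fold change was -0.030, turning to 0.18 with 16 higher under library size alone. The most abundant of them, *Ier3* and *Ctgf*, were at 314.1 ± 104.7 and 269.5 ± 65.7 TPM in the controls and at 351.4 ± 38.7 and 322.8 ± 89.5 TPM after GDNF, with log2 fold changes of -0.24 and -0.16. *Gadd45b* and *Ier5* had the smallest p of the group (edgeR, adjusted p = 0.298 and 0.339). With each culture left out, at most 2 of this group passed, both without control culture 7, and the median was 0.0094 without GDNF culture 6.

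Of 10 other bZIP partners, 2 passed as higher and 1 as lower. *Mafg*, a small MAF protein that pairs with NRF factors, was at 53.7 ± 15.7 TPM in the controls and 100.6 ± 10.3 TPM after GDNF, with a log2 fold change of 0.54 (edgeR, adjusted p = 0.167). *Jdp2*, which encodes a repressor that pairs with JUN, had a log2 fold change of -0.61 (edgeR, adjusted p = 0.167). *Atf2*, which encodes a target of JNK and p38 kinases, was at 18.7 ± 4.93 and 27.2 ± 4.14 TPM with a log2 fold change of 0.17. The median of the group was -0.29, and -0.054 with library size alone, where 4 passed as higher and 0 as lower. Of 20 upstream kinases and factors, 3 passed as higher and 2 as lower, with a median of -0.018. The calls turned with the scaling, to 6 higher and 1 lower with library size alone (median 0.21) and to 0 higher and 6 lower with the transcript length offset. Without control culture 21 or GDNF culture 12, 0 passed as higher. *Map2k1*, which encodes the ERK kinase MEK1, was lower at -0.64 (edgeR, adjusted p = 0.167) and *Braf*, a kinase above it, higher at 0.64 (adjusted p = 0.196). *Map2k2*, which encodes MEK2, was at 57.5 ± 12.7 and 73.3 ± 6.61 TPM with a log2 fold change of -0.045. Of 14 feedback genes of MAP kinase signalling, 1 passed as higher, *Spred3* at 0.54 (edgeR, adjusted p = 0.167), and the median was 0.26. With library size alone 6 passed as higher and the median was 0.48, where the median over all genes was 0.25. Without GDNF culture 6, 3 passed, without GDNF culture 12, 0 passed, and without GDNF culture 17 the median was 0.089. Of the most abundant genes of this list, *Spry1* was at 116.3 ± 20.3 and 189.3 ± 23.9 TPM with a log2 fold change of 0.31 (edgeR, adjusted p = 0.272), and *Dusp6*, an ERK phosphatase, at 139.9 ± 6.05 and 166.3 ± 7.71 TPM with -0.16 (edgeR, adjusted p = 0.503).

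Of 15 genes known as AP-1 targets, 13 had log2 fold changes below 0 and 4 passed as lower, with a median of -0.52. They included *Plau*, the urokinase gene, at -1.55 (edgeR, adjusted p = 0.190) and *Ccnd1*, the cyclin D1 gene, at -1.31 (edgeR, adjusted p = 0.214). The controls of both were widely spread, at 16.7 ± 16.7 TPM for *Plau* and 77.9 ± 63.8 TPM for *Ccnd1*, against 7.40 ± 2.91 and 42.4 ± 7.96 TPM after GDNF. The high values were those of control cultures 3 and 21, at 15.5 and 40.6 TPM of *Plau* and 104.7 and 155.6 TPM of *Ccnd1*. Control cultures 7 and 14, at 5.03 and 5.68 TPM of *Plau* and 27.4 and 23.8 TPM of *Ccnd1*, lay within or below the GDNF range. *Spp1*, the osteopontin gene, was the most abundant at 16079 ± 4097 and 13672 ± 2898 TPM, with a log2 fold change of -0.67 (edgeR, adjusted p = 0.216). *Timp1*, an inhibitor of metalloproteinases, was at 449.9 ± 291.2 and 388.0 ± 173.8 TPM with -0.58 (edgeR, adjusted p = 0.427). The number that passed depended on single cultures and on the scaling: it was 0 with limma-voom and without GDNF culture 6, and 1 with library size alone (median -0.28), without control culture 3 or 21 and without GDNF culture 12 or 22. It was 5 without control culture 14. The median stayed below 0 under each of the 17 alternatives.

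For *Myc*, 10 partners and antagonists had a median log2 fold change of 0.11, with *Mxd3* at -0.54 (edgeR, adjusted p = 0.167) and *Mlx* at -0.46 (edgeR, adjusted p = 0.177) the only 2 that passed, while with library size alone 2 passed as higher and 1 as lower (median 0.32). Of 12 genes known as Myc targets, 9 were below 0 and 4 passed as lower, with a median of -0.25, and of -0.032 with library size alone, where 1 passed in each direction. *Ldha*, the lactate dehydrogenase gene and also a target of hypoxia signalling, was at 1658 ± 267.9 TPM in the controls and 993.7 ± 233.6 TPM after GDNF, with a log2 fold change of -1.18 (edgeR, adjusted p = 0.167). *Odc1*, for polyamine synthesis, was at -0.63 (edgeR, adjusted p = 0.167) and *Npm1*, for a nucleolar chaperone, at -0.54 (edgeR, adjusted p = 0.168). Without GDNF culture 22, 2 of the 12 passed. *Myc* itself differed by -0.14 in the same fit.

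Heat shock genes, which handling of live tissue can induce together with immediate early genes, were read from the same fit. All 7 had log2 fold changes below 0 and 2 passed, *Hspa8* at -0.67 (edgeR, adjusted p = 0.167) and *Dnajb1* at -0.58 (edgeR, adjusted p = 0.167). *Hsp90aa1*, among the most abundant of them, was at 121.4 ± 53.4 and 109.5 ± 12.6 TPM. *Hspa1a* and *Hspa1b* had log2 fold changes of -0.21 and -0.40 (edgeR, unadjusted p of 0.654 and 0.437). The summed TPM of the 7 was 656.4 to 1093 in the controls and 636.0 to 834.5 in the GDNF cultures, which overlapped. *Hspa8* alone was at 474.7 to 646.9 TPM in the controls and 416.0 to 535.4 TPM in the GDNF cultures. With library size alone 5 of the 7 were below 0, and with limma-voom 4. As lower, 4 passed in DESeq2, 4 without control culture 7 and 5 without control culture 14. Over all genes, those settings called 2522 of 20229, 2391 of 16772 and 2181 of 16754 as lower, in that order. The part of handling in the level of the 10 factors was not tested.

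**Figure D5:**
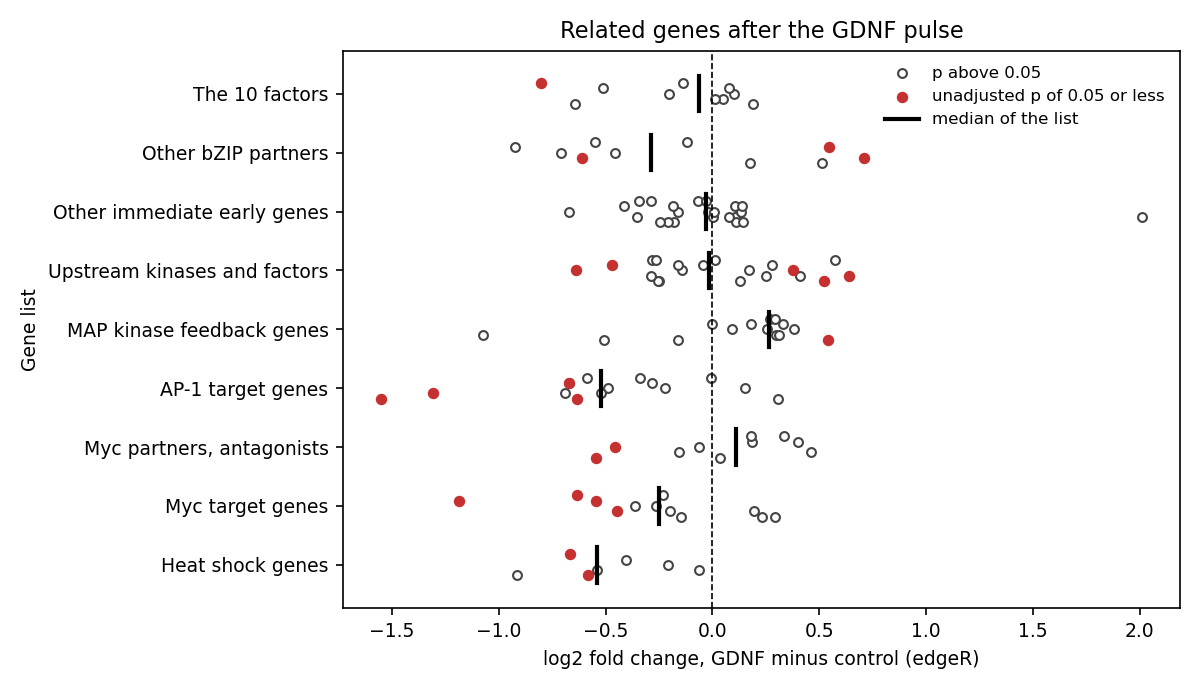
Log2 fold change, GDNF minus control, of the 10 factors and of each related gene by list (edgeR, TMM normalization), with filled points at an unadjusted p of 0.05 or less and a bar at the median of each list. The 10 factors have their median at -0.063, the AP-1 target genes at -0.52 and the heat shock genes at -0.54.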

How the data were processed

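RNA-Seq libraries of 8 tubuloid cultures (SMART-Seq v4 kit, poly-A selection, paired-end reads) were mapped by the authors with STAR to mm10, the equivalent of GRCm38. The submitters' processing notes also name featureCounts and DESeq2, without versions. The authors deposited, for each culture, whole-number counts of 33068 RefSeq transcripts without normalization. The deposited FPKM values, counts per transcript length and per total, were used only to obtain transcript lengths. The TPM values deposited have an equal sum in all cultures. A read shared by transcripts is counted for each of them, so total counts (72991721 to 97490625 per culture, or 46478955 to 62847252 over 1 transcript per gene) exceed the number of reads. The authors' sequencing lane of each culture is not given in the sources used here, so that lane and group cannot be told apart.

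Cultures were grouped by their titles and treatment labels. Counts, summed per symbol, entered glmQLFit and glmQLFTest of edgeR 4.0.16 (R 4.3.3) after filterByExpr and TMM normalization, with p-values of 16557 genes adjusted by Benjamini-Hochberg and a threshold of 0.05. Standard errors are the absolute log2 fold change divided by the square root of the F statistic. Log2 CPM used a prior count of 1. TPM was taken from the transcript whose count had the highest mean, and compared by two-sided exact permutation tests over all 70 assignments (smallest p = 0.0286), adjusted over the 13698 genes that averaged 1 TPM or more. Alternatives were DESeq2 1.42.0, limma-voom (limma 3.58.1), other normalizations and filters, 1 transcript per gene, a transcript length trend (spline with 5 degrees of freedom) as offset, a covariate for *Xist* or Y-linked RNA, other TPM scales and leaving out each culture in turn. The edgeR, DESeq2 and limma-voom fits were tested on simulated counts. All else used Python 3.11.15 (SciPy 1.17.1, NumPy 2.4.6, pandas 2.3.3; matplotlib 3.10.9 for figures).

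The 10 factors, the gene lists and the tests were chosen with earlier results of these data known. From each list the text names the 2 genes with the smallest unadjusted edgeR p and the 2 with the highest mean TPM, and, for factors with an SD of log2 CPM of at least 0.5, the 2 genes with a mean of at least 5 CPM whose log2 CPM differs least in root mean square. One gene that this rule selects is not reported here. *Krt8* and *Krt18* belong to the epithelial list. *Hspa1a* and *Hspa1b* of the heat shock list are named outside this rule. Family shares and promoter matches were added after the values were seen.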

Additional observations from a re-analysis of the deposited data

Results flagged for a closer look

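The TMM normalization factor of control culture 3, 0.790, lay farther from the other controls (0.963 to 0.982) than Dixon's 95% critical value allows for 4 samples. It was the 1 value of 26 groups of 4 examined, the factors' TPM and CPM included, for which this held, where chance gives about 1.3. The same culture had the lowest TPM of *Fos*, *Fosb*, *Fosl2*, *Jun* and *Egr1*, and the highest TPM of *Jund* and *Atf3*. Its part in those values was not tested beyond leaving the culture out.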

How the results depend on the processing

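No paired analysis was possible because the control and GDNF cultures share no culture numbers. No gene passed an adjusted p of 0.05 in edgeR or limma-voom under any alternative run, including each culture left out, whereas DESeq2 called 1253 genes and none of the 10 factors. The number of factors at an unadjusted p of 0.05 or less, 1 as reported, was 0 with library size alone, limma-voom or the transcript length offset. Over all 16557 genes, those settings called 4149, 3730 and 2921, in that order. With each culture left out, 0 to 3 factors were called, beside 2192 (without GDNF 22) to 4104 (without control 7) of 16772 genes. The number of factors whose groups did not overlap in TPM, 0 as reported, was 0 to 2 with each culture left out. The share of all genes was not computed for that. The log2 fold change of *Fosl1* stayed below 0 under all 17 alternatives, between -1.03 and -0.46, and was -0.57, -0.46 and -0.65 with library size alone, limma-voom and the length offset, where its unadjusted p was above 0.05. *Jund* and *Atf3* also stayed below 0 throughout. *Jund*, -0.51 as reported, was -0.17 without control 3 and -0.25 with library size alone and with limma-voom, and passed the unadjusted p without control 7 (-0.67) or 14 (-0.63).

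The others changed sign around 0 in the following cases. With the length offset, the log2 fold change was -0.055 for *Fosb*, -0.13 for *Fosl2*, -0.050 for *Jun* and -0.0033 for *Egr1*. With library size alone it was 0.023 for *Junb* and 0.096 for *Myc*. For *Jun* it was -0.0069 with DESeq2 size factors and -0.0084 in DESeq2. Without control 3 it was -0.0089 for *Fos*, -0.091 for *Fosb*, -0.015 for *Jun*, -0.077 for *Egr1* and 0.0076 for *Myc*. Without control 7 it was -0.0096 for *Fos*, -0.033 for *Jun* and -0.0028 for *Egr1*. Without control 21 it was -0.012 for *Fosb*, without GDNF 22 -0.064 for *Fosb*, and without GDNF 12 -0.071 for *Jun* and -0.032 for *Egr1*. With each culture left out, the range was -0.0096 to 0.25 for *Fos*, -0.091 to 0.39 for *Fosb*, -0.071 to 0.061 for *Jun*, -0.077 to 0.15 for *Egr1* and -0.32 to 0.0076 for *Myc*. The difference of means was -31.1 for *Junb* and -16.0 for *Myc* in CPM in place of TPM. In TPM, it was 2.55 for *Jund* and 0.0670 for *Atf3* without control 3, and 0.863 for *Jund*, 0.0267 for *Atf3* and 0.553 for *Fosl1* without control 21, with ranges over the cultures left out of -7.62 to 0.553 for *Fosl1*, -5.99 to 2.55 for *Jund* and -1.13 to 0.0670 for *Atf3*. The cause of these changes was not tested. *Fosb* rested on 16 to 53 counts per culture.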
